A study of Homo sapiens with 2 samples.

Results

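The 10 genes described here make, recycle and use glutathione: GCLC, GCLM, GSS and GSR for synthesis and reduction, GPX1, GPX2 and GPX4 for peroxide removal, and GSTP1, GSTM1 and MGST1 for conjugation. They were taken by symbol from tables of transcript levels, where all 10 were found, on 21 of 65535 transcript rows, among 30843 symbols in all. RNA-seq of total RNA was available for 2 human lung cancer lines, with 1 library each. MTAC-P descends from PC9 and is resistant to EGFR tyrosine kinase inhibitors. PC9 is the parent, a lung adenocarcinoma line with an activating EGFR deletion that is sensitive to such inhibitors. Both lines were grown in DMEM with serum, and the labels name no inhibitor in the medium at harvest, no number of clones and no way in which resistance was obtained. The design text mentions triplicates, whereas the values come as 1 column per line, so the differences below have no replicate check and none was tested.

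Glutathione is a tripeptide of glutamate, cysteine and glycine and the main small thiol of the cell. Glutamate-cysteine ligase and then glutathione synthetase build it, glutathione peroxidases spend it to reduce peroxides, glutathione reductase restores it with NADPH, and glutathione transferases join it to reactive compounds, some drugs among them. Many of these genes are targets of the transcription factor NRF2, which binds antioxidant response elements in their promoters and is held back by KEAP1. In lung adenocarcinoma this system is known for its part in resistance to oxidative stress and to drugs.

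Levels are given in FPKM, a fragment count divided by transcript length and by library size, summed over the listed transcripts of a gene. The log2 ratio is log2((MTAC-P + 1)/(PC9 + 1)), so a negative value means a lower level in MTAC-P, and the pseudocount of 1 understates the difference of low genes. The listed values summed to 685082 FPKM in MTAC-P and 693444 in PC9, and their read depth is unknown, so no interval can be given for any level. Symbols that begin with MT- made up 16.9% of the sum in MTAC-P and 19.4% in PC9. All 9 epithelial markers had a mean of at least 1 FPKM, with summed levels of 3970 in MTAC-P and 3793 in PC9. KRT18, at 2720 in MTAC-P and 2329 in PC9, carried the higher sum, and 7 of the 9 had log2 ratios at or below 0. The 8 lung lineage markers summed to 46.5 FPKM in MTAC-P and 57.0 in PC9. FOXA1, at 34.4 in MTAC-P and 50.9 in PC9, carried the lower sum. GATA6 stood at 3.41 in MTAC-P and 0.568 in PC9, a log2 ratio of 1.49. NAPSA (0.13), SFTPB (0.46), SFTPC (0.79) and SFTPA1 (0.33) also had log2 ratios above 0. NKX2-1 was listed at 0 in MTAC-P and at 0.0787 in PC9, and FOXA2 at 0.0000120 in MTAC-P and 0.0000860 in PC9. The 7 blood cell markers, of leukocytes except for the red cell gene HBB, summed to 1.15 FPKM in MTAC-P and 2.16 in PC9. The 6 fibroblast markers summed to 2.94 in MTAC-P and 2.49 in PC9. The 3 endothelial markers with a row summed to 4.20 in MTAC-P and 3.42 in PC9. Nearly all of this was CDH5, at 4.13 in MTAC-P and 3.34 in PC9. The 3 hepatocyte markers were listed at 0 in both.

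In MTAC-P, 2 of the 10 glutathione genes stood at least 2-fold lower than in PC9, GPX2 and GSTM1, and none stood at least 2-fold higher. Of the 11435 genes compared, those whose average over the libraries reached 1 FPKM, 4.29% were lower by 2-fold or more and 3.48% higher, together 7.77%. At 1.5-fold GSR joined them, so that 3 of the 10 were lower, against 11.2% of the genes compared. Between those 2 genes and the rest, GSR, GCLC, GPX4 and GSTP1 had log2 ratios between -0.65 and -0.33. GPX1, GCLM, GSS and MGST1 stayed between -0.08 and 0.12. In all, 7 of the 10 genes had a ratio below 0, against 52.4% of all genes compared, and the median was -0.41 against -0.02 for all genes compared. In bulk RNA, fewer cells that express a gene and less RNA per cell cannot be told apart.

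**Figure D1:**
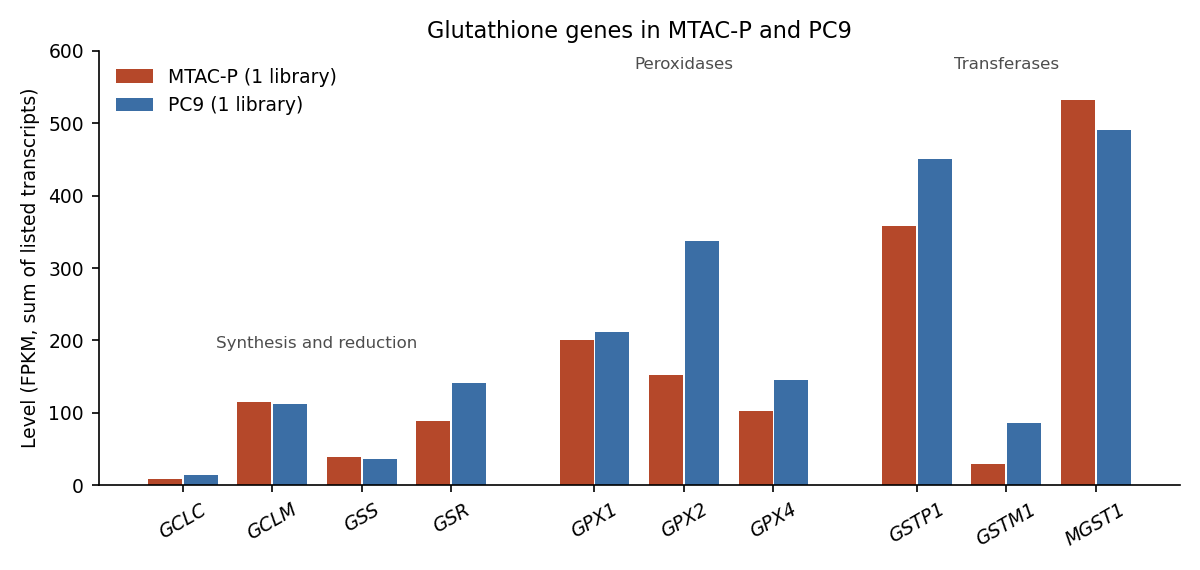
Level of each glutathione gene in MTAC-P (left bar) and PC9 (right bar), in FPKM summed over listed transcripts, with 1 library per line and therefore no error bar. GPX2 stood at 153 FPKM in MTAC-P and 337 in PC9, while MGST1 was the most abundant gene in both, at 532 in MTAC-P and 490 in PC9.

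The order of levels was similar in the libraries but not the same. In MTAC-P it ran MGST1, GSTP1, GPX1, GPX2, GCLM, GPX4, GSR, GSS, GSTM1 and GCLC. In PC9 it ran MGST1, GSTP1, GPX2, GPX1, GPX4, GSR, GCLM, GSTM1, GSS and GCLC. GPX2 thus stood below GPX1 in MTAC-P and above it in PC9, and GCLM stood above GPX4 and GSR in MTAC-P and below them in PC9. With 1 library per line the spread of each level is unknown, so neighbours in these orders cannot be called different.

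The first enzyme of synthesis, glutamate-cysteine ligase, has a catalytic subunit encoded by GCLC and a modifier subunit, encoded by GCLM, that raises its efficiency. GCLC, on chromosome 6 (53497341 to 53616970, minus strand, GRCh38), was the least abundant of the 10 genes, at 9.36 FPKM in MTAC-P and 13.8 in PC9, a log2 ratio of -0.52. GCLM, on chromosome 1 (93885205 to 93909456, minus strand), stood at 115 FPKM in MTAC-P and 113 in PC9, a log2 ratio of 0.03. This ratio was within rounding of 0 or just below it when the libraries were scaled without MT- genes (-0.00) or to equal upper quartiles (-0.01). The level of GCLM was 12.3 times that of GCLC in MTAC-P and 8.18 times in PC9, both per length. The modifier subunit's transcript was therefore listed well above that of the catalytic subunit in both lines.

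GSS encodes glutathione synthetase, which adds glycine in the last step. It lies on chromosome 20 (34928433 to 34956027, minus strand) and stood at 38.6 FPKM in MTAC-P and 36.1 in PC9, a log2 ratio of 0.09. GSR encodes glutathione reductase, which turns oxidised glutathione back to the reduced form with NADPH. It stood at 89.4 FPKM in MTAC-P and 141 in PC9, a log2 ratio of -0.65. Within this group the genes that build glutathione therefore had ratios on both sides of 0, and the reductase had the lowest ratio. The GSR difference lay in 1 of its 2 rows. That row (ENST00000414019) stood at 84.5 FPKM in MTAC-P and 136 in PC9 and made up 94.5% of the gene's sum in MTAC-P and 96.5% in PC9, while the other (ENST00000221130) stood at 4.88 in MTAC-P and 4.91 in PC9. The abundant row is not among the transcripts of GENCODE release 29, the annotation used for positions.

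GPX1, GPX2 and GPX4 reduce peroxides with glutathione and carry selenocysteine in the active site, which is encoded by a TGA codon read through by a dedicated machinery. The coding stretch around that codon is shown because it is what these genes have in common, with 21 bases on each side and the TGA in capitals, from the most abundant listed transcript of each gene (GENCODE release 29).
GPX1: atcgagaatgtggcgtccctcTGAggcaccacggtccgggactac
GPX2: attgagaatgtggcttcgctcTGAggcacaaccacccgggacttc
GPX4: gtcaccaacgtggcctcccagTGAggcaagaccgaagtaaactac
Each transcript had 1 in-frame TGA before its end, at codon 49 of GPX1, codon 40 of GPX2 and codon 73 of GPX4. Over these 45 bases GPX2 equalled GPX1 at 37 positions and GPX4 at 25.

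GPX2, the peroxidase best known from the epithelium of the gut, had the largest difference of this group. The gene lies on chromosome 14 (64939152 to 64942905, minus strand), and its 1 listed row, a transcript with 2 exons, stood at 153 FPKM in MTAC-P and 337 in PC9. The log2 ratio was -1.13, at rank 374 from the lowest of 11435 genes compared and rank 9 of the 795 genes that averaged 100 FPKM or more. Of those 795 abundant genes 2.64% reached 2-fold in either direction. None of the 951 distinct stretches of 40 bases in this transcript occurred in a GENCODE transcript of another gene.

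GPX1, the broadly expressed cytosolic peroxidase, stood at 201 FPKM in MTAC-P and 212 in PC9, a log2 ratio of -0.08 (chromosome 3, 49357171 to 49358600, minus strand). Of its 1112 stretches of 40 bases 25.4% also occur in the processed pseudogenes GPX1P1 or GPX1P2. GPX1P1 was listed at 1.49 FPKM in MTAC-P and 5.06 in PC9. GPX4 reduces lipid hydroperoxides within membranes and is the enzyme that guards cells against ferroptosis. It stood at 103 FPKM in MTAC-P and 145 in PC9, a log2 ratio of -0.49 (chromosome 19, 1103926 to 1106791, plus strand), from 1 of its 10 GENCODE coding transcripts. All 3 peroxidases thus had ratios below 0, but only GPX2 reached 2-fold. Their summed level was 457 FPKM in MTAC-P and 694 in PC9. GPX2 held 33.5% of that sum in MTAC-P and 48.5% in PC9, and GPX1 held 43.9% in MTAC-P and 30.6% in PC9.

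**Figure D2:**
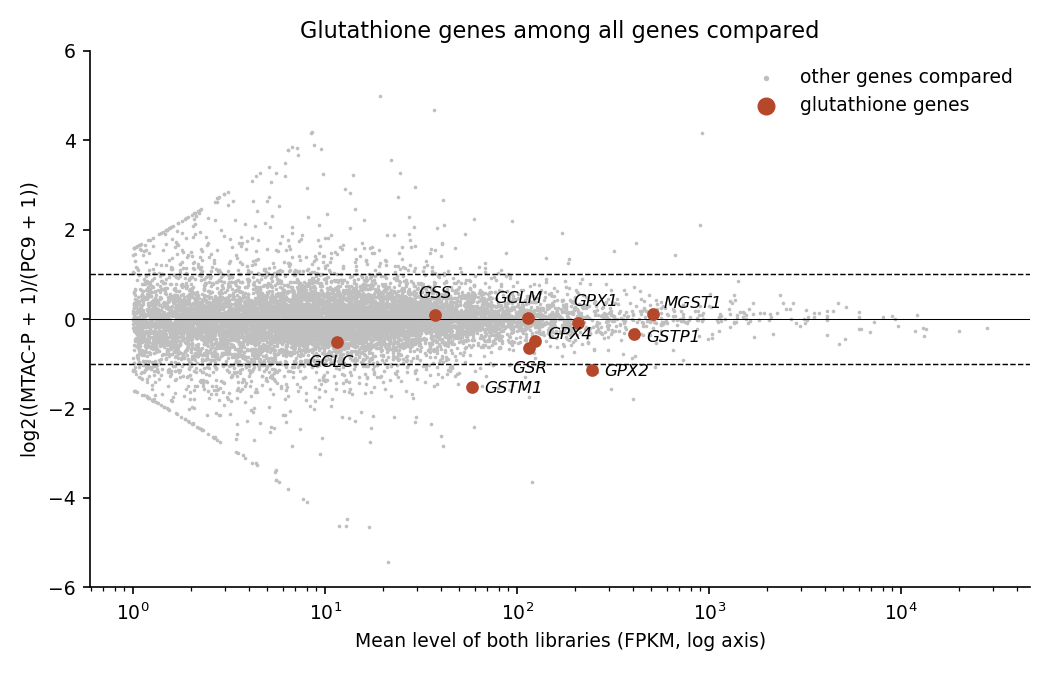
Log2 ratio of MTAC-P over PC9 (pseudocount 1) against the mean level of both libraries (FPKM, log axis) for the 11435 genes compared, with the 10 glutathione genes in red and dashed lines at 2-fold. GSTM1 (-1.52) and GPX2 (-1.13) lie below the lower line, and the spread of all genes narrows as the level rises.

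GSTP1 encodes the pi class glutathione transferase, the main cytosolic transferase of many epithelial tumours. It stood at 358 FPKM in MTAC-P and 451 in PC9, a log2 ratio of -0.33 (chromosome 11, 67583595 to 67586656, plus strand), and 1 row held 99.2% of its sum in MTAC-P and 98.7% in PC9. MGST1, a transferase of the MAPEG family set in the membranes of the endoplasmic reticulum and mitochondria, also reduces lipid hydroperoxides. It stood at 532 FPKM in MTAC-P and 490 in PC9, a log2 ratio of 0.12 (chromosome 12, 16347142 to 16609259, plus strand). Its 6 rows all had ratios above 0, between 0.03 and 0.34, and ENST00000396210 held 97.6% of the sum in MTAC-P and 97.8% in PC9. Neither of these abundant transferases reached 2-fold. Among the 795 abundant genes GSTP1 ranked 81 from the lowest ratio and MGST1 526, beside 25 for GSR and 41 for GPX4.

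GSTM1, a cytosolic transferase of the mu class, had the lowest ratio of the 10 genes. It lies on chromosome 1 (109687814 to 109709039, plus strand) and stood at 29.4 FPKM in MTAC-P and 86.4 in PC9, a log2 ratio of -1.52, at rank 186 from the lowest of all genes compared. The main row (ENST00000309851, 8 exons) stood at 27.8 FPKM in MTAC-P and 82.2 in PC9. Its second row, ENST00000369823, stood at 1.62 in MTAC-P and 3.07 in PC9. The other 2 rows were listed at 0 in MTAC-P and at 1.07 and 0.0490 in PC9. All 4 rows of GSTM1 were thus lower in MTAC-P.

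GSTM1 has close copies beside it, so its separate value is uncertain. The first 60 coding bases of its main transcript and of the most abundant listed coding transcript of 3 neighbours are shown because they make this likeness visible, with bases that differ from GSTM1 in capitals.
GSTM1: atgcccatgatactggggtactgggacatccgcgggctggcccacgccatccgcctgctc
GSTM2: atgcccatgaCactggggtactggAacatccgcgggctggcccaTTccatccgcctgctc
GSTM4: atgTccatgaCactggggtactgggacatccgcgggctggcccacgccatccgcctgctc
GSTM5: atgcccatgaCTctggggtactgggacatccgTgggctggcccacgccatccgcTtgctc
In this window GSTM4 differs from GSTM1 at 2 bases and GSTM2 and GSTM5 at 4 each. Over the whole coding sequence of 654 bases, GSTM4 equals GSTM1 at 92.2% of positions, GSTM5 at 90.7% and GSTM2 at 89.9%. Of the 1122 distinct stretches of 40 bases in the main GSTM1 transcript, 750 (66.8%) also occur in a transcript of another gene, 48.3% in GSTM2 and 27.9% in GSTM4. GENCODE also places 559 exon bases of a GSTM2 transcript and 402 of the antisense gene AC000032.1 on GSTM1 exons. The length of the reads and whether strand was used in counting are not given in the sources used here.

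GSTM4 stood at 9.25 FPKM in MTAC-P and 23.1 in PC9, a log2 ratio of -1.23. GSTM3 shared no stretch of 40 bases with the GSTM1 transcript and stood at 19.9 FPKM in MTAC-P and 29.8 in PC9, a log2 ratio of -0.56. GSTM2 and GSTM5 were listed at 0 in MTAC-P, and in PC9 at 0.0000100 and 0. Summed over GSTM1, GSTM2, GSTM4 and GSTM5, so that the split of reads among these copies matters less, the level was 38.7 FPKM in MTAC-P and 109 in PC9, a log2 ratio of -1.48. All 3 mu class genes that averaged 1 FPKM or more were thus lower in MTAC-P, GSTM1 and GSTM4 by 2-fold or more.

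The 5 nearest coding genes on each side that averaged 1 FPKM or more of the mu class cluster were looked up after the values of the cluster had been seen. Of these 10 neighbours, 9 had log2 ratios above 0, against 5440 of the 11435 genes compared. Among the 9, AHCYL1 (0.02) and LRIF1 (0.05) were close to 0. None of the 10 reached 2-fold, against 7.77% of the genes compared that did. On the side of GSTM4, AMPD2, an AMP deaminase gene, stood at 10.2 FPKM in MTAC-P and 8.66 in PC9 (log2 ratio 0.21). On the side of GSTM3, CSF1, which encodes a macrophage growth factor, stood at 7.70 in MTAC-P and 5.59 in PC9 (0.40). The exception was SLC16A4, a monocarboxylate transporter family gene, with a log2 ratio of -0.46. The neighbours are not all close to the cluster, and the farthest on the side of GSTM3, LRIF1, starts at 110947185. The ratios of GSTM1 and GSTM4 are not separate observations, since these genes share stretches of sequence. Why the mu class genes were lower was not tested.

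**Figure D3:**
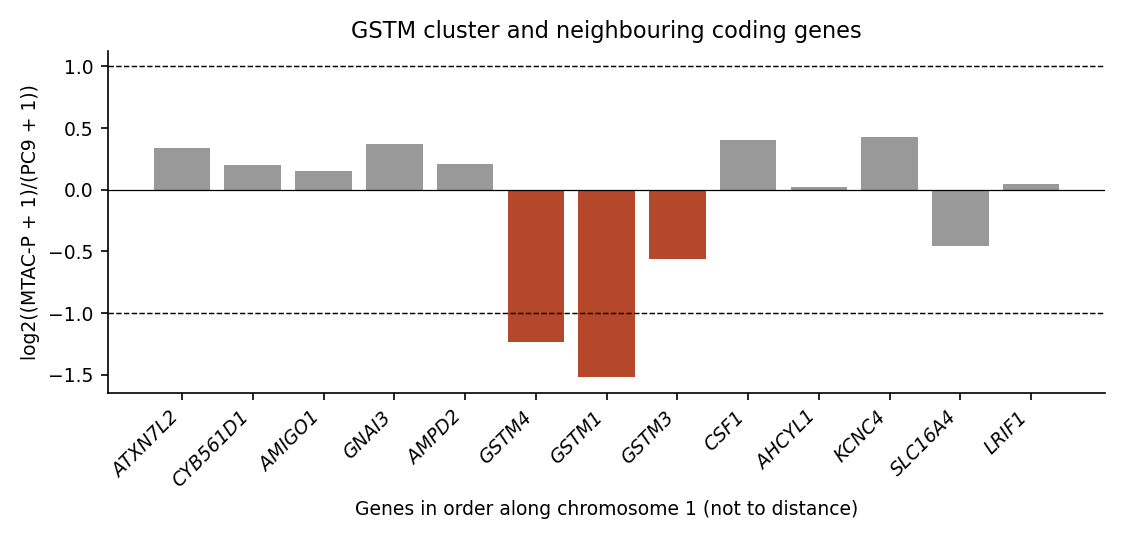
Log2 ratio of MTAC-P over PC9 (pseudocount 1) for the mu class transferase genes that averaged 1 FPKM or more (red) and the 5 nearest such coding genes on each side (grey), in their order along chromosome 1 and not drawn to distance, with dashed lines at 2-fold. GSTM4 (-1.23), GSTM1 (-1.52) and GSTM3 (-0.56) lie below 0, and 9 of the 10 neighbours lie above it.

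The core of the antioxidant response element was looked for in the promoters of the 10 genes, since it is the site through which NRF2 acts. The letters searched were TGACNNNGC on both strands, from 250 bases before to 50 after each RefSeq gene start (GRCh38.p14), and 8 of the genes had an entry. At least 1 promoter of 5 of those 8 held the letters (62.5%), against 16.1% of all 27305 symbols with a promoter and 19.8% of the genes compared. Counting by symbol favours genes with several promoters. Counted by promoter, 5 of 12 held the letters (41.7%), against 13.3% of all promoters and 14.7% of those of genes compared. MGST1 had a match in 1 promoter and none in its others. Each match is shown with 10 bases on either side, read along the gene, with the 9 matching bases in capitals, because they set the genes with low ratios beside those with ratios near 0.
GSTM1: ctgggcgcccTGACTTCGCtcccggaacc
GPX2: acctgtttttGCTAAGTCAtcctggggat
GSTP1: gccggcgccgTGACTCAGCactggggcgg
GCLM: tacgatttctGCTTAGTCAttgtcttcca
MGST1: ggggacatcgTGACAAAGCaaattgtctg
These stretches lie at chr1:109687642-109687670 (plus strand) for GSTM1, chr14:64942849-64942877 (minus) for GPX2, chr11:67583736-67583764 (plus) for GSTP1, chr1:93909446-93909474 (minus) for GCLM and chr12:16347135-16347163 (plus) for MGST1. The first matching base was 165 bases before the RefSeq start in GSTM1, 122 in GPX2, 66 in GSTP1 and 34 in GCLM, and 30 bases after the start in MGST1. In GPX2 and GCLM the letters are on the opposite strand. Starts differ between annotations: in GENCODE release 29 all 29 bases shown for GPX2 and for GSTP1 lie within exons, as do 22 of those for MGST1, 11 for GCLM and 0 for GSTM1. The GSTP1 match also holds TGACTCA, a site of the AP-1 factors.

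The genes with a match were not all low. Their log2 ratios were -1.52 for GSTM1, -1.13 for GPX2, -0.33 for GSTP1, 0.03 for GCLM and 0.12 for MGST1. Those with an entry and no match were GCLC (-0.52), GPX4 (-0.49) and GPX1 (-0.08). Across the genes compared, the median log2 ratio was -0.03 for the 1582 with a match and -0.01 for the 6410 without. A match describes letters in a window and is no evidence of binding in these cells.

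Of 93 related genes that averaged 1 FPKM or more, in 12 lists that feed, use or regulate glutathione or remove oxidants beside it, 7 were lower in MTAC-P by 2-fold or more and 3 higher, where 4.29% of all genes compared were lower and 3.48% higher. Their median log2 ratio was -0.15, against -0.02 for all genes compared. Of the 93, 59 lay below 0, against 52.4% of all genes compared. With a pseudocount of 5 in place of 1, 2 were lower and 1 higher, and 284 of all 11435 genes reached 2-fold. Each list below holds 1 to 16 genes compared. Its count at 2-fold therefore says little beside the 7.77% of all genes compared.

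Cysteine is the limiting building block of glutathione, and its supply genes had a median log2 ratio of 0.02 (8 compared, 4 on each side of 0). SLC7A11, the cystine transporter that supplies most of it, stood at 50.0 FPKM in MTAC-P and 61.8 in PC9 (-0.30; named after its value was seen). SLC1A3, a glutamate transporter, was the 1 gene of this list at 2-fold, at 8.66 FPKM in MTAC-P and 0.0510 in PC9, a log2 ratio of 3.20. Of its 7 GENCODE coding transcripts 2 were listed. Genes of glutathione turnover had a median of 0.06 (6 compared, none at 2-fold). Their most abundant members were GGCT, which releases oxoproline from gamma-glutamyl peptides, at 85.5 FPKM in MTAC-P and 85.2 in PC9 (0.00), and the peptidase LAP3 at 22.8 in MTAC-P and 20.9 in PC9 (0.11).

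Genes of pathways that supply NADPH, the reductant used by glutathione reductase, had a median log2 ratio of -0.27 (9 compared). Among them PGLS, TKT and TALDO1 belong to the pentose phosphate pathway but do not make NADPH themselves. Of the 9 genes, 8 had ratios below 0, against 52.4% of all genes compared. TALDO1, 1 of the 8, was level, at 150 FPKM in both lines (-0.00). IDH1, the cytosolic isocitrate dehydrogenase, was the member at 2-fold, at 28.5 FPKM in MTAC-P and 68.4 in PC9 (-1.23). PGD, phosphogluconate dehydrogenase, was the 1 gene of this list above 0, at 105 in MTAC-P and 96.9 in PC9 (0.12; named after its value was seen, like TALDO1).

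Of the 5 other glutathione peroxidases 1 reached a mean of 1 FPKM. This was GPX3, the secreted peroxidase of plasma, at 0.569 FPKM in MTAC-P and 5.82 in PC9, a log2 ratio of -2.12. Of its 7 GENCODE coding transcripts 1 was listed. The selenocysteine machinery, on which GPX1, GPX2 and GPX4 depend for their active site, had a median of -0.02 (6 compared, none at 2-fold). SEPHS1, a paralogue of the selenophosphate synthetase, stood at 98.3 FPKM in MTAC-P and 109 in PC9 (-0.15), and SCLY, the selenocysteine lyase, at 18.0 in MTAC-P and 14.9 in PC9 (0.26).

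Other glutathione transferases had a median of -0.17 (7 compared), and GSTM4 was the member at 2-fold. The other MAPEG proteins, relatives of MGST1, had a median of 0.33 (3 compared). PTGES, the prostaglandin E synthase, stood at 118 FPKM in MTAC-P and 93.4 in PC9 (0.33), and MGST3 at 110 in MTAC-P and 74.7 in PC9 (0.55). Genes of glutathione-dependent detoxification and conjugate export had a median of -0.33 (10 compared, none at 2-fold). The most abundant by the mean of both libraries were GLO1, the glyoxalase, at 101 FPKM in MTAC-P and 98.9 in PC9 (0.02), and ESD, which hydrolyses formylglutathione, at 86.5 in MTAC-P and 75.4 in PC9 (0.20). The 5 export pump genes ABCC1 to ABCC5, named after their values were seen, all had ratios below 0, between -0.70 and -0.41. They had the lowest ratios of this list, where 7 of 10 genes were below 0 and 3 above. Of all genes compared 52.4% were below 0.

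The thioredoxin, peroxiredoxin and glutaredoxin system works in parallel to glutathione. None of its 16 compared genes reached 2-fold, against 7.77% of all genes compared that did, and the median was -0.10. PRDX1, the most abundant by the mean of both libraries, stood at 1474 FPKM in MTAC-P and 1953 in PC9 (-0.41), and thioredoxin itself, TXN, at 1611 in MTAC-P and 1507 in PC9 (0.10). Of the genes that remove superoxide and hydrogen peroxide (6 compared, median -0.42), CCS, the copper chaperone of superoxide dismutase, was the member at 2-fold. It stood at 0.152 FPKM in MTAC-P and 11.0 in PC9 (-3.38), from 1 of its 3 GENCODE coding transcripts.

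**Figure D4:**
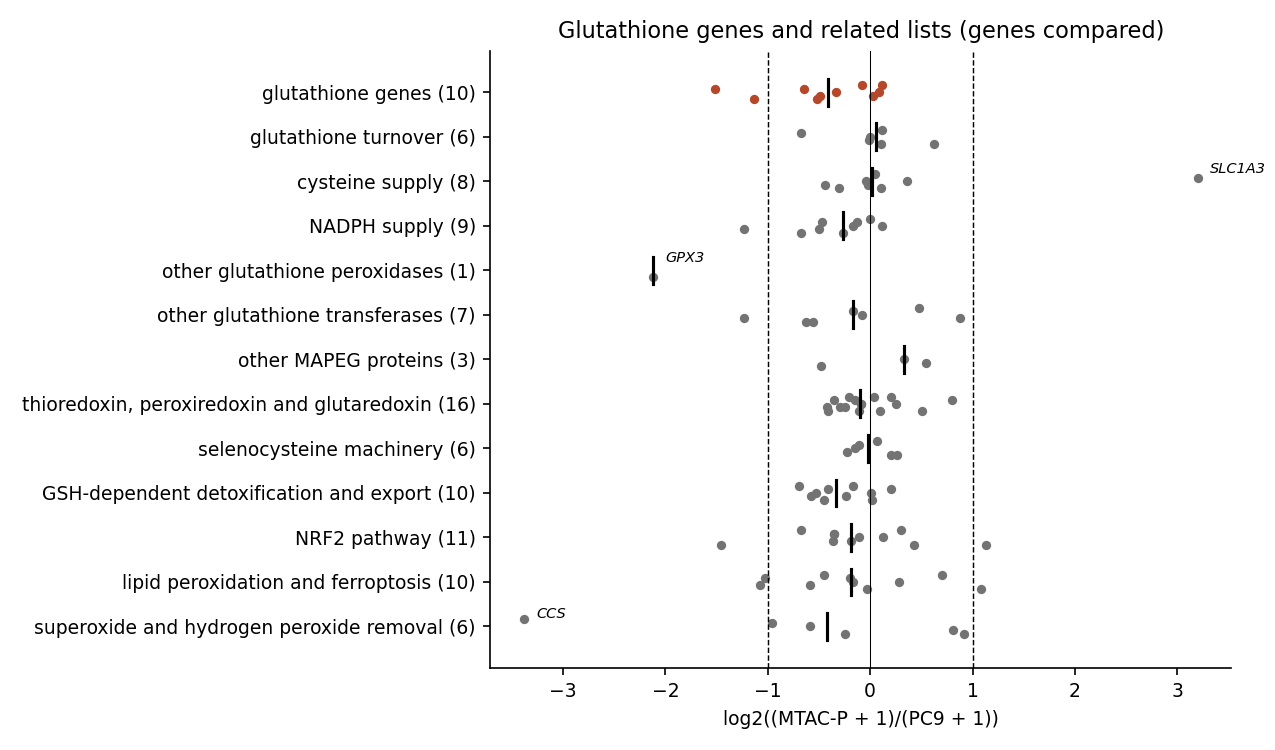
Log2 ratio of MTAC-P over PC9 (pseudocount 1) for each gene compared, with the 10 glutathione genes in red at the top and 12 related lists in grey below, the number of genes in brackets, black ticks at list medians and dashed lines at 2-fold. The glutathione genes have a median of -0.41 and lie between -1.52 and 0.12, while SLC1A3 (3.20) and CCS (-3.38) lie farthest out.

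Genes of the NRF2 pathway had a median log2 ratio of -0.19 (11 compared, 1 at least 2-fold higher and 1 lower). Of all genes compared 3.48% were higher and 4.29% lower by 2-fold or more. NFE2L2, which encodes NRF2, stood at 36.5 FPKM in MTAC-P and 26.9 in PC9 (0.43), and its inhibitor KEAP1 at 20.9 in MTAC-P and 27.0 in PC9 (-0.36). The NRF2 target NQO1, a quinone reductase, stood at 192 in MTAC-P and 309 in PC9 (-0.68), and the haem oxygenase HMOX1 at 3.34 in MTAC-P and 10.9 in PC9 (-1.46). MAFF, a small MAF partner of NRF2, was the member at least 2-fold higher, at 34.0 in MTAC-P and 15.0 in PC9 (1.13). NRF2 protein was not measured.

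Genes of lipid peroxidation and ferroptosis, the process that GPX4 holds back, had a median of -0.19 (10 compared). ACSL4, which loads polyunsaturated fatty acids into membrane lipids, was at least 2-fold higher, at 39.8 FPKM in MTAC-P and 18.3 in PC9 (1.08), from 2 of its 8 GENCODE coding transcripts. SLC40A1, the iron exporter ferroportin, was at least 2-fold lower, at 2.14 in MTAC-P and 5.62 in PC9 (-1.08). FTH1, the heavy chain of the iron store ferritin, stood at 49.1 in MTAC-P and 101 in PC9 (-1.03), from 1 of its 8 coding transcripts. GPX4 itself had a ratio of -0.49, as given above.

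The tables hold part of the transcripts of each gene, so a difference can be one between transcripts. Levels compared between genes, such as the orders of level, GCLM over GCLC and the peroxidase shares, also depend on which transcripts were listed. Of the coding transcripts in GENCODE release 29, 1 of 8 was listed for GCLC, 1 of 2 for GCLM, 1 of 11 for GSS, 1 of 4 for GSR, 2 of 4 for GPX1, 1 of 3 for GPX2, 1 of 10 for GPX4, 2 of 4 for GSTP1, 4 of 6 for GSTM1 and 4 of 10 for MGST1. The gene GSR lies on chromosome 8 (30678061 to 30727999, minus strand). The remaining coding transcripts of these genes were not analysed here.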

How the data were processed

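Total RNA of MTAC-P and PC9 was sequenced with 1 library per line. Per the submitters' processing notes, Trim Galore, TopHat and Cufflinks were used with hg38, whose versions, like the annotation release, are not given in the sources used here. Deposited tables hold 1 value for each transcript with no unit named, and it was read as FPKM, the unit of Cufflinks. Each table has 65536 lines with its header, and transcript numbers end at 437205. Each table was assigned to its line from its sample record.

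Values were summed per symbol with pandas 2.3.3 and Python 3.11.15. Genes that averaged 1 FPKM or more were compared by log2((MTAC-P + 1)/(PC9 + 1)), and 2-fold on this scale was counted. With 1 library per line no test was made. Only the log2 ratio step was checked on simulated data. Positions and transcript sequences came from GENCODE release 29 (GRCh38), promoters from RefSeq (GRCh38.p14). All members are named, and from each related list up to 4 genes at 2-fold, or else the 2 most abundant, and NFE2L2, KEAP1, NQO1 and the GSTM genes. The members, lists and rules were chosen with earlier results of these data known. Abundant genes (mean of at least 100 FPKM), neighbours of the GSTM cluster and the shared stretches of 40 bases were added later. Alternatives were other pseudocounts (0.1 and 5), scalings, filters, row choices and a threshold of 1.5-fold.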

Additional observations from a re-analysis of the deposited data

How the results depend on the processing

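The count of 2 glutathione genes at 2-fold, both lower in MTAC-P, was the same under each of the 10 alternatives of pseudocount, scaling, filter and row choice, and became 3, all lower, at 1.5-fold. Of 100 values of single glutathione genes under these alternatives, 100 kept their side of 2-fold. Part of this was fixed in advance. The filters on level could not change a glutathione gene, since the lowest, GCLC, averaged 11.6 FPKM. Keeping protein-coding rows could not either, since all listed rows of these genes are protein-coding. Taking the highest row could not change genes with 1 row. GPX2 ranged from -1.16 to -1.11, GSTM1 from -1.55 to -1.41 and GSR from -0.68 to -0.62, and the median of the 10 genes from -0.44 to -0.36. Of those values 2 changed sign, both of GCLM. The 10 related genes at 2-fold became 3 (1 higher, 2 lower) with a pseudocount of 5 and 24 (9, 15) at 1.5-fold. The 888 genes of all became 1344 (569 higher, 775 lower) with a pseudocount of 0.1, 284 (140, 144) with 5, 431 (206, 225) at a mean of at least 5 and 2307 (1025, 1282) at 1.5-fold; the filter tests fewer genes and the thresholds differ by construction. No paired analysis was possible because there was 1 library per line, and for the same reason no replicate could be left out. Depth is unknown, so low levels such as those of GPX3, SLC1A3 and CCS carry no stated precision.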
